A study of Mus musculus with 12 samples.

Results

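The expression of 9 genes of branched-chain amino acid and glutamine metabolism was followed in the triceps brachii muscle of 12 mice. The genes were chosen by symbol (Bcat2, Bckdha, Bckdhb, Dbt, Bckdk, Ivd, Glul, Slc38a3 and Gpt2), and all 9 were found among the 10187 genes of the table and passed the filter on low values (a mean of at least 10 normalized reads over the 12 mice), as did 7247 genes in all. RNA sequencing measured inactive wild-type (IW), active wild-type (AW), inactive myostatin-reduced (IM) and active myostatin-reduced (AM) male C57/BL6 mice, with 3 mice in each group. The myostatin-reduced mice carried Mstn alleles with a floxed exon 3 and a tamoxifen-activated Cre whose promoter is not given in the sources used here. Mice of all 4 groups, wild-type included, were fed chow with 0.025% tamoxifen for 6 weeks from 4 months of age. From 6 months the active mice spent 12 weeks in individual cages with a running wheel, while inactive mice had been kept in shared cages, so housing and wheel running cannot be told apart.

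Muscle is a main site of the first steps in the breakdown of leucine, isoleucine and valine, the branched-chain amino acids (BCAA). Bcat2, the mitochondrial BCAA aminotransferase, moves the amino group onto alpha-ketoglutarate, which forms glutamate and leaves a branched-chain keto acid. The branched-chain keto acid dehydrogenase (BCKDH) complex, built from Bckdha, Bckdhb, Dbt and Dld, then commits the carbon skeleton to oxidation, and it is switched off by the kinase Bckdk and on by the phosphatase Ppm1k. The amino groups leave muscle largely as glutamine, made by glutamine synthetase (Glul), and as alanine, made by alanine aminotransferases such as Gpt2.

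Different members were called for activity and for genotype. The transcripts of both subunits of the BCKDH decarboxylase, Bckdha and Bckdhb, were higher in active mice, so that 2 of 9 genes were higher and 0 lower in active mice, where 7.99% of all genes tested were higher and 6.51% lower. In myostatin-reduced mice Glul was higher and Slc38a3, a glutamine transporter, lower, so that 1 of 9 genes was higher and 1 lower, where 3.57% of all genes tested were higher and 2.21% lower. These calls come from limma on log2(normalized reads + 1) with Benjamini-Hochberg adjustment over all 7247 genes at an adjusted p under 0.05, and all changes are given on that log2 scale, which understates the change of low genes. The median change of the 9 genes was 0.17 with activity and -0.004 with genotype, beside medians of -0.02 and -0.005 over all genes tested. Rescaling the values to the same sum in every mouse moved the median activity change of all genes by 0.10 and the share of higher genes among those called from 55.1 to 90.4% for activity and from 61.8 to 28.6% for genotype. Relative to the median of all genes, the activity changes of Bckdhb and Bckdha were 0.38 and 0.24 before and 0.38 and 0.25 after rescaling, and the genotype changes of Glul and Slc38a3 were 0.65 and -0.44 both before and after.

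**Figure D1:**
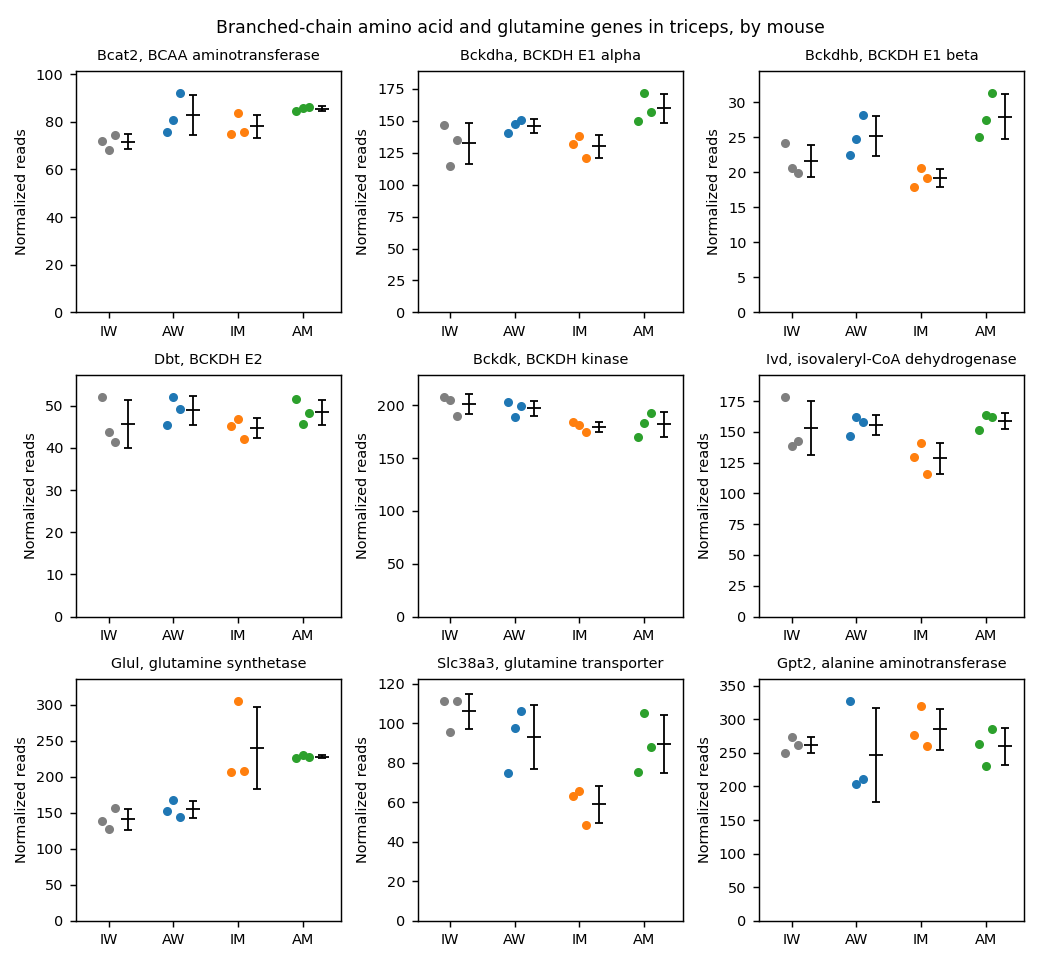
Normalized reads (vertical axes, from 0) of the 9 genes in each of the 12 mice, 1 panel per gene and 1 point per mouse in the groups IW, AW, IM and AM, with the mean and SD of 3 mice in black. Glul is above 206 in all 6 myostatin-reduced mice and at or below 168 in all 6 wild-type mice, and Slc38a3 is lowest in the 3 IM mice.

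The bases before the start sites of Glul, Bckdha and Bckdhb are shown because Glul carried the clearest genotype difference and Bckdha and Bckdhb, subunits of a single enzyme, were both higher in active mice. Each is the 250 bases upstream of a RefSeq start site (promoter table of assembly GRCm38.p6), read 5′ to 3′ on the gene's strand, and each was matched letter for letter to NCBIM37 (mm9), the build of the files. The Glul window lies at chr1:155746809-155747058 on the plus strand, the Bckdha window at chr7:26443781-26444030 on the minus strand and the Bckdhb window at chr9:83818494-83818743 on the plus strand. Capitals mark matches, on either strand, to 5 motifs: AAGGTCA (the half-site of estrogen-related receptors), AGAACA (the half-site of the glucocorticoid receptor), CACCC (bound by Klf factors), GTAAACA (FoxO factors) and CAGAC (Smad factors, which act below myostatin).
Glul: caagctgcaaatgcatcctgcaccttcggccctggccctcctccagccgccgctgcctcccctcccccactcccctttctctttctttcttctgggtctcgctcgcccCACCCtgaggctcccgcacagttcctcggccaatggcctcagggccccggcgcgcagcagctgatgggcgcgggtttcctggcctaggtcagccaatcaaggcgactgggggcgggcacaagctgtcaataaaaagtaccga
Bckdha: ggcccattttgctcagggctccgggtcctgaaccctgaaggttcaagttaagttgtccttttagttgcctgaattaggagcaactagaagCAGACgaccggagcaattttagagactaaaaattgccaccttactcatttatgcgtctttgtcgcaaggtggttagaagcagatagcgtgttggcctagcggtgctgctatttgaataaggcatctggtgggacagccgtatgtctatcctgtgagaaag
Bckdhb: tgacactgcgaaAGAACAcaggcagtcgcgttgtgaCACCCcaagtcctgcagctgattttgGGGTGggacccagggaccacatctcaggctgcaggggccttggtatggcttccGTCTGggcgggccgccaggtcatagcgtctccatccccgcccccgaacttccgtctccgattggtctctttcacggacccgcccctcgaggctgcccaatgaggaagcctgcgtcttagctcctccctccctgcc
Glul held 1 CACCC, Bckdha held 1 CAGAC, and Bckdhb held 1 AGAACA, 2 CACCC and 1 CAGAC, with no overlap between matches. The table holds a second entry for Bckdhb, whose window had 36.4% GC, matched 4 places in NCBIM37 and held none of the 5 motifs. The window shown is the 1 that matched a single place, 13 bases before the annotated start of the gene. These letters are common: over 32851 promoter windows of the same length, 52% held CACCC, 42.2% CAGAC and 16.1% AGAACA, while 4.08% held AAGGTCA and 3.17% GTAAACA. A match is a run of letters and not a measured binding site, and neither AAGGTCA nor GTAAACA occurs in these 3 windows or in those matched for Bcat2, Bckdk, Ivd and Gpt2, the other members among the 7 with an entry. The windows for Slc38a3 and Dbt were not analysed here.

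The targeted gene followed the labels. Mstn, the secreted inhibitor of muscle growth, had 116 ± 31.9 normalized reads in IW, 19.0 ± 2.28 in IM, 93.7 ± 15.1 in AW and 12.8 ± 3.76 in AM mice (mean ± SD, n = 3), a genotype change of -2.66 (limma adjusted p = 1.29e-06). All 7 skeletal muscle markers were detected in every group. Mb of that list, the oxygen store myoglobin, stood at 1098 to 2991 normalized reads in IW, 284 to 565 in IM, 2261 to 4842 in AW and 1970 to 3565 in AM mice. It was called for activity (1.82, limma adjusted p = 0.00190) and for genotype (-1.26, adjusted p = 0.0206), and within inactive mice it was 75.7% lower with myostatin reduction (adjusted p = 0.0227). These are the directions of Bckdha and Bckdhb with activity and of Slc38a3 with genotype, and the part of what moved Mb in those changes was not tested. The estimated depth was 9023996 to 12184719 reads per mouse and differed neither with activity nor with genotype beyond the spread of the mice (two-sided exact permutation p = 0.734 and 0.238). A member value rested on an estimated 170 to 3780 reads, a counting error of 1.63 to 7.67%, while the spread between the 3 mice of a group was 0.961 to 28.2% of the mean. In whole muscle, fewer cells of a type and less RNA per cell cannot be told apart. The mice differed in slow-fibre content: the summed level of 11 slow-fibre markers such as Myh7, none of them at 0 in any mouse, ran from 94.3 to 1370 normalized reads in IW, 78.3 to 112 in IM, 151 to 1831 in AW and 117 to 1343 in AM mice. Of those markers 1, Casq2, was called for activity and 0 for genotype, with list medians of 1.8 for activity and -1.3 for genotype. The summed level of 6 endothelial markers was 249 to 314 in IW, 215 to 220.2 in IM, 250.3 to 425 in AW and 281 to 474 in AM mice, and 5 of the 6 (Pecam1, Kdr, Tek, Tie1 and Emcn) rose with activity.

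Levels were compared between genes per kilobase of the longest annotated coding transcript, by group. In IW mice the level was 74.6 ± 9.11 normalized reads per kilobase for Bckdha, 71.9 ± 3.39 for Gpt2, 70.6 ± 3.38 for Bckdk and 50.5 ± 5.31 for Glul (mean ± SD, n = 3). In the same mice it was 41.8 ± 6.04 for Ivd, 34.4 ± 1.51 for Bcat2, 33.7 ± 2.86 for Slc38a3, 14.6 ± 1.57 for Bckdhb and 13.9 ± 1.72 for Dbt. Bckdha, Gpt2 and Bckdk differed by less than the largest of their SDs, as did Bcat2 and Slc38a3, and Bckdhb and Dbt. In IM mice Glul, at 85.9 ± 20.3, had the highest mean of the 9 genes by this length, and Slc38a3 stood at 18.8 ± 2.97. Per kilobase of all annotated exons merged, the mean of Glul in IM mice was 72.0, below the 73.4 of Bckdha. Within the BCKDH complex the group means per kilobase were 73.4 to 90.1 for Bckdha, 13.0 to 19.0 for Bckdhb and 13.6 to 14.8 for Dbt. The order depends on the length used: per kilobase of all annotated exons merged, the means over the 12 mice were 46.7 rather than 72.4 for Gpt2, 27.1 rather than 40.7 for Ivd and 20.4 rather than 38.2 for Bcat2, while Bckdha and Dbt kept 80.1 and 14.2 and Bckdhb had 15.8 rather than 15.9.

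All values are reads summed over the exons of a gene, and positions are those of NCBIM37. Bcat2 spans chr7:52825523-52845080 on the plus strand (longest coding transcript with 11 exons), Bckdha chr7:26414871-26443780 on the minus strand (9 exons), Bckdhb chr9:83818757-84017846 on the plus strand (11 exons) and Dbt chr3:116215988-116252894 on the plus strand (11 exons). Bckdk spans chr7:135047596-135053178 on the plus strand (12 exons), Ivd chr2:118687690-118708645 on the plus strand (12 exons) and Gpt2 chr8:88016475-88051459 on the plus strand (12 exons). Glul spans chr1:155747074-155756853 on the plus strand (7 exons), on the chromosome that also holds Mstn (chr1:53118507-53124923, plus strand) but 102.6 Mb away, and Slc38a3 spans chr9:107552970-107569705 on the minus strand (15 exons). Some reads are open to a second source: the Glul transcript has 3 other matches in the genome, of 1341 to 2476 bases at 88.4 to 95.7% identity, Gpt2 has 2 at 84.4 to 88.5% and Bckdhb has 1 of 343 bases at 88.1%. Bcat2 shares 622 exon bases with an RNA on the opposite strand (0610005C13Rik), and Glul shares 67 with 5830403L16Rik, also on the opposite strand. How reads in these stretches were assigned is not given in the sources used here.

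Bcat2, the entry step of the pathway, was higher in every active mouse than in every inactive mouse of its genotype, although the change missed the threshold. It stood at 72.0, 68.3 and 74.5 normalized reads in the 3 IW mice, 75.1, 83.8 and 75.8 in IM, 75.7, 80.6 and 92.2 in AW and 84.4, 86.0 and 86.2 in AM. Active and inactive mice thus did not overlap in either genotype, a pattern that 4.84% of all genes tested showed with active mice higher, and Bcat2 was the only 1 of the 9 genes to show it. The gaps were narrow, from 74.52 in the highest IW to 75.73 in the lowest AW mouse. In myostatin-reduced mice they ran from 83.75 in the highest IM to 84.41 in the lowest AM mouse. Each gap was smaller than the counting error of a single such value (3.15 to 3.74%). The activity change was 0.17 (SE 0.0546, 12.3% higher, limma adjusted p = 0.0585). The genotype change was 0.09 (adjusted p = 0.374).

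Bckdhb, the beta subunit of the BCKDH decarboxylase, showed the largest activity change of the 9 genes. Its normalized reads were 24.2, 20.7 and 19.8 in IW, 17.9, 20.6 and 19.1 in IM, 22.4, 24.8 and 28.1 in AW and 25.0, 27.4 and 31.4 in AM mice. The myostatin-reduced groups did not overlap, while the wild-type groups did, since the highest IW mouse stood above the lowest AW mouse. How many of all genes are free of overlap within a single level was not counted, so here and below it only describes the values. Within myostatin-reduced mice 26.2% of all genes had an unadjusted limma p under 0.05 for activity. Averaged over genotypes Bckdhb rose by 0.36 (SE 0.0775, 95% interval 0.19 to 0.53, 28.6% higher, limma adjusted p = 0.0102), and its genotype change was -0.004 (adjusted p = 0.983). The order of the group means was AM, AW, IW and IM, with overlapping ranges between each neighbouring pair.

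Within genotypes, Bckdhb was 42.9% higher in active than inactive myostatin-reduced mice (0.52, limma adjusted p = 0.0180) and 15.7% higher in active than inactive wild-type mice (0.21, adjusted p = 0.403). The difference between these changes was 0.31 (SE 0.155, unadjusted p = 0.0717, limma adjusted p = 0.89), so a stronger response in myostatin-reduced mice was not shown. The call within myostatin-reduced mice was lost without IM mouse 1, IM mouse 3, AM mouse 2 or AM mouse 3 (adjusted p = 0.0662, 0.0638, 0.0691 and 0.0517 in turn). Averaged over genotypes the call was kept when any 1 mouse was left out.

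Bckdha, the alpha subunit on which the kinase acts, rose less and with a less secure call. It was measured at 147, 115 and 135 normalized reads in IW, 132, 138 and 121 in IM, 140.3, 147 and 151 in AW and 149.8, 172 and 157 in AM mice. As for Bckdhb, the myostatin-reduced groups were apart and the wild-type groups overlapped, and the order of the means was again AM, AW, IW and IM. The activity change was 0.22 (SE 0.0641, 16.5% higher, limma adjusted p = 0.0380), with 0.29 in myostatin-reduced (adjusted p = 0.0667) and 0.15 in wild-type mice (adjusted p = 0.487) and an interaction of 0.14 (adjusted p = 0.896). The call was lost with the replicate number as a block (adjusted p = 0.0552) and without any of IW mice 2 and 3, IM mice 1 and 3, AW mice 2 and 3 or AM mice 2 and 3, where the change ranged from 0.17 to 0.23 and the adjusted p from 0.0533 to 0.0942.

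With the slow-fibre score (the mean log2 deviation over the 11 markers) as a covariate, the activity change was 0.32 for Bckdhb (limma adjusted p = 0.0633) and 0.14 for Bckdha (adjusted p = 0.216), and 0 of 9 genes were called for activity, while the count over all genes fell from 1051 to 401. AM mouse 3, with the highest Bckdhb value of all, had a slow-fibre score of -1.63, while IW mouse 1, the highest inactive mouse, had a score of 1.96. The endothelial markers also rose with activity, by a median of 0.51 over the list, and their part in the changes of Bckdha and Bckdhb was not tested.

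Dbt, the transacylase core of the complex, and Bckdk, its kinase, were not called for either factor. Dbt lay between 41.3 and 52.1 normalized reads in all 12 mice, with group means of 45.7 ± 5.67 in IW, 44.7 ± 2.33 in IM, 48.9 ± 3.38 in AW and 48.5 ± 2.96 in AM mice, and an activity change of 0.11 (95% interval -0.03 to 0.25, limma adjusted p = 0.285). The ranges of all neighbouring groups overlapped. Bckdk stood at 208, 205 and 190.2 in IW, 184, 181 and 174 in IM, 203, 189 and 199.7 in AW and 169.7, 184 and 193 in AM mice. The 3 IM mice were below the 3 IW mice, whereas the active groups overlapped, and the genotype change was -0.14 (SE 0.0463, 9.11% lower, limma adjusted p = 0.104). It was called only after scaling to the same sum (-0.20, adjusted p = 0.0243). Its activity change was -0.006 (95% interval -0.11 to 0.09).

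Ivd, the isovaleryl-CoA dehydrogenase of leucine breakdown, had 178, 138 and 142 normalized reads in IW, 129, 141 and 116 in IM, 147, 162 and 158 in AW and 152, 163 and 162 in AM mice. The 3 IM mice lay below the 3 AM mice, and the wild-type groups overlapped only through IW mouse 1, the highest of the 12. The activity change was 0.17 (SE 0.0700, limma adjusted p = 0.120), 0.31 in myostatin-reduced mice (adjusted p = 0.0723) and 0.03 in wild-type mice (adjusted p = 0.918), with an interaction of 0.28 (adjusted p = 0.89). Without IW mouse 1 the averaged change was 0.23 and passed the threshold (adjusted p = 0.0234).

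**Figure D2:**
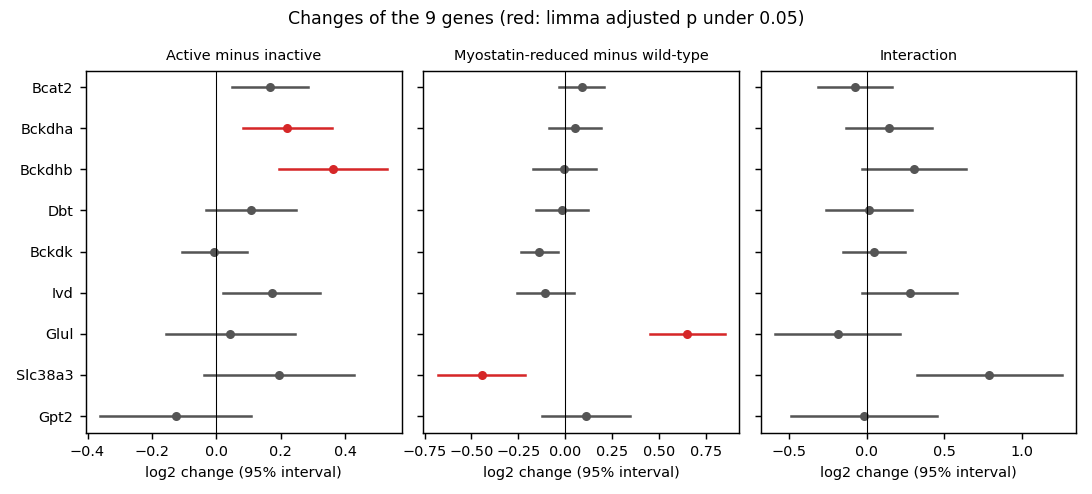
Changes on the log2(normalized reads + 1) scale (horizontal axes, with 95% intervals) of the 9 genes for activity, genotype and their interaction, from the fit over all 12 mice. Red marks a limma adjusted p under 0.05, reached by Bckdha and Bckdhb for activity, by Glul and Slc38a3 for genotype and by none for the interaction.

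Of the 19 other BCAA catabolism genes tested, 7 rose with activity and 0 fell, where 7.99% of all genes tested rose and 6.51% fell, 17 of the 19 changes were positive, and the list median was 0.17 beside -0.02 over all genes. Bcat1, the cytosolic aminotransferase, was not analysed here. Dld, the dehydrogenase that BCKDH shares with pyruvate dehydrogenase, rose by 0.35 (limma adjusted p = 0.00370), from 246 to 333 normalized reads over the 6 inactive mice to 310.5 to 382 over the 6 active mice. Ppm1k, the phosphatase that opposes Bckdk, rose by 0.47 (adjusted p = 0.0113), from 21.4 to 36.1 in inactive to 31.5 to 46.6 in active mice.

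The other 5 that rose act further down. Echs1, an enoyl-CoA hydratase also used in fatty acid oxidation, rose by 0.52 (limma adjusted p = 0.00253) and Acat1, a mitochondrial thiolase of the isoleucine branch that also serves ketone bodies, by 0.41 (adjusted p = 0.00429). Hibadh of the valine branch rose by 0.29 (adjusted p = 0.00190), Hsd17b10 of the isoleucine branch by 0.23 (adjusted p = 0.0162), and Mcee, the methylmalonyl-CoA epimerase, by 0.33 (adjusted p = 0.0102). Among those not called, the leucine genes Mccc1 and Mccc2 had changes of 0.17 (adjusted p = 0.0964) and 0.21 (adjusted p = 0.0818), and Slc25a44, a mitochondrial BCAA carrier, -0.11 (adjusted p = 0.163). With the slow-fibre score as a covariate 4 of the 7 stayed called (Dld, Echs1, Hibadh and Acat1). As background, Echs1, Acat1 and Hsd17b10 also have known roles outside BCAA breakdown.

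Of these 19 genes 0 were higher and 1 was lower in myostatin-reduced mice, a share near that over all genes (3.57% higher and 2.21% lower). Pcca, the alpha subunit of propionyl-CoA carboxylase, which takes up the propionyl-CoA of isoleucine and valine, stood at 98.4, 107 and 93.0 normalized reads in IW, 75.9, 71.0 and 70.1 in IM, 87.8, 89.1 and 91.2 in AW and 75.0, 75.9 and 73.1 in AM mice. All 6 myostatin-reduced mice were below all 6 wild-type mice, a pattern not counted over all genes. The change in Pcca was -0.35 (SE 0.0458, 21.8% lower, limma adjusted p = 0.00140). Its partner Pccb had a genotype change of 0.01 (adjusted p = 0.920). The genotype median of the list was -0.06, beside -0.005 over all genes.

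Glul, glutamine synthetase, was the gene of the 9 with the clearest genotype difference. Its normalized reads were 138, 127 and 157 in IW, 207, 305 and 207 in IM, 152, 168 and 145 in AW and 226, 230.0 and 227 in AM mice. Every myostatin-reduced mouse lay above every wild-type mouse, and the 3 AM mice lay close together while IM mouse 2 stood well above the other two IM mice. Genotypes that do not overlap at either activity level, with myostatin-reduced mice higher, were seen for 2.81% of all genes tested. The genotype change was 0.65 (SE 0.0923, 95% interval 0.45 to 0.85, 56.9% higher, limma adjusted p = 0.00263).

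The Glul genotype call was kept when any 1 mouse was left out, with changes of 0.56 to 0.70 and adjusted p-values of 0.00136 to 0.0102. Without IM mouse 2 the change within inactive mice was 0.56 rather than 0.74. Within inactive mice Glul was 67.4% higher in myostatin-reduced mice (limma adjusted p = 0.0180), a call lost without IW mouse 1 (adjusted p = 0.0726), and within active mice it was 47.1% higher (0.56, unadjusted p = 0.000999, adjusted p = 0.149). In that last comparison 0.207% of all genes passed, and the interaction was -0.19 (95% interval -0.59 to 0.21, adjusted p = 0.901). Activity moved Glul by 0.04 (95% interval -0.16 to 0.24, adjusted p = 0.778). The order of the means was IM, AM, AW and IW, and only the step from AM to AW was free of overlap. With the slow-fibre score as a covariate the genotype change was 0.68 (adjusted p = 0.00336).

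Slc38a3, a sodium-coupled transporter of glutamine, histidine and asparagine, was lowest in inactive myostatin-reduced mice. It stood at 111, 95.5 and 111 normalized reads in IW, 63.1, 65.7 and 48.4 in IM, 74.9, 97.6 and 106 in AW and 75.4, 104.9 and 88.1 in AM mice. The 3 IM mice lay below all 9 others, a pattern not counted over all genes. The IW, AW and AM groups overlapped one another, so that of the ordered means (IW, AW, AM, IM) only the last step was free of overlap. Averaged over activity the genotype change was -0.45 (SE 0.108, 95% interval -0.68 to -0.21, 26.6% lower, limma adjusted p = 0.0332).

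Within inactive mice Slc38a3 was 44.2% lower with myostatin reduction (-0.84, limma adjusted p = 0.0181), whereas within active mice the change was -0.05 (95% interval -0.38 to 0.28, adjusted p = 0.915). Within myostatin-reduced mice it was 50.5% higher in active mice (0.59, adjusted p = 0.0354), and within wild-type mice the change was -0.20 (adjusted p = 0.597). The interaction was 0.79 (SE 0.215, 95% interval 0.32 to 1.26, unadjusted p = 0.00301), which did not pass after adjustment over all genes (limma adjusted p = 0.89). The IM group enters each of these called differences and the interaction, so they are not independent of each other. Activity averaged over genotypes changed Slc38a3 by 0.20 (adjusted p = 0.240).

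The Slc38a3 calls depended on single mice. The averaged genotype call was lost without any of IW mice 1 and 3, IM mice 1 and 3, AW mice 2 and 3 or AM mice 1 and 3, with changes of -0.38 to -0.47 and adjusted p-values of 0.0566 to 0.0855. The call within inactive mice was lost without IW mouse 1 or 3 or IM mouse 1 or 3 (adjusted p = 0.0824, 0.0641, 0.0552 and 0.0801 in turn), and the activity call within myostatin-reduced mice without any of the 3 IM mice, AM mouse 2 or AM mouse 3 (adjusted p = 0.0597 to 0.162). With the slow-fibre score as a covariate the averaged genotype change was -0.35 (limma adjusted p = 0.0722) and the activity change within myostatin-reduced mice 0.42 (adjusted p = 0.160), while the change within inactive mice was -0.71 and stayed called (adjusted p = 0.0312). The 3 IM mice had slow-fibre scores of -2.23, -1.79 and -1.39. Summed endothelial markers were also lowest in these mice, at 215 to 220.2 normalized reads, and their part in the Slc38a3 changes was not tested.

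**Figure D3:**
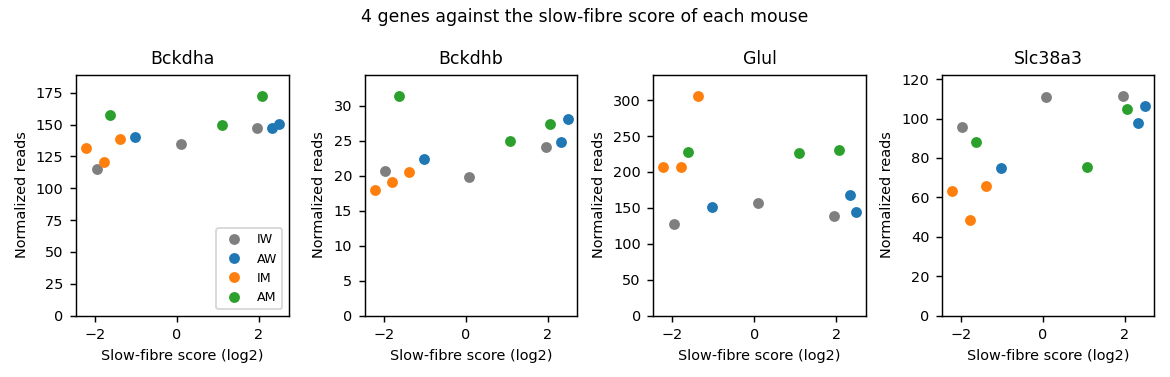
Normalized reads (vertical axes, from 0) of Bckdha, Bckdhb, Glul and Slc38a3 against the slow-fibre score of the same mouse (horizontal axes, log2 deviation), 1 point per mouse and 1 colour per group. The 3 IM mice have scores of -2.23 to -1.39, and Glul separates the genotypes at low and high scores alike.

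Over the 4 comparisons within a level, the share of all genes called differed widely and the members have to be read against it. Within myostatin-reduced mice 7.84% of all genes were called for activity and 2 of the 9 members were, Bckdhb and Slc38a3. Within wild-type mice 0.0276% were called (2 genes, with 1067 at an unadjusted p under 0.05) and 0 of the 9 members, of which 1, Bcat2, had an unadjusted p under 0.05. Within inactive mice 2.51% were called for genotype and 2 of the 9 members were, Glul and Slc38a3, and within active mice 15 genes were called and 0 of the members. For the interaction 0% of all genes were called by limma, with 297 genes (4.1%) at an unadjusted p under 0.05, and 0 of the 9 members were called, with Slc38a3 the only 1 at an unadjusted p under 0.05.

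Gpt2, the mitochondrial alanine aminotransferase, had the widest spread within a group, 28.2% of the mean in AW mice. It stood at 249, 274 and 262 normalized reads in IW, 277, 319 and 260.1 in IM, 327, 203 and 210.4 in AW and 263, 231 and 286 in AM mice. AW mouse 1 was the highest of the 12 and the other two AW mice the lowest, and all neighbouring groups overlapped. The activity change was -0.13 (95% interval -0.36 to 0.11, limma adjusted p = 0.459) and the genotype change 0.11 (adjusted p = 0.588). Without AW mouse 1 the activity change was -0.24 and passed the threshold (adjusted p = 0.0309).

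Of 6 other tested enzymes of glutamine, glutamate, alanine and aspartate metabolism, 3 rose with activity (Gpt, Got1 and Got2) and 0 fell, beside 7.99% and 6.51% of all genes, with a list median of 0.32. Gpt, the cytosolic alanine aminotransferase, stood at 25.3, 18.6 and 21.4 normalized reads in IW, 20.03, 20.7 and 18.0 in IM, 24.3, 41.6 and 38.3 in AW and 33.6, 34.7 and 34.4 in AM mice. It rose by 0.70 (62.6% higher, limma adjusted p = 0.00280), and the only overlap was between AW mouse 1 and IW mouse 1. Got1 and Got2, the cytosolic and mitochondrial aspartate aminotransferases of the malate-aspartate shuttle, rose by 0.82 (76.0% higher, adjusted p = 0.00118) and 0.48 (39.7% higher, adjusted p = 0.00435). Glud1, glutamate dehydrogenase, changed by 0.16 (adjusted p = 0.0553) and Oat, ornithine aminotransferase, by -0.06 (adjusted p = 0.494). Genotype moved 0 of the 6, and with the slow-fibre score as a covariate Got1, Got2 and Gpt stayed called for activity. Asl and Aldh18a1 of the same list fell below the filter on low values and were not tested. Aldh18a1, named after its values were seen, had 4.13 to 5.74 normalized reads in wild-type and 7.82 to 9.47 in myostatin-reduced mice.

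**Figure D4:**
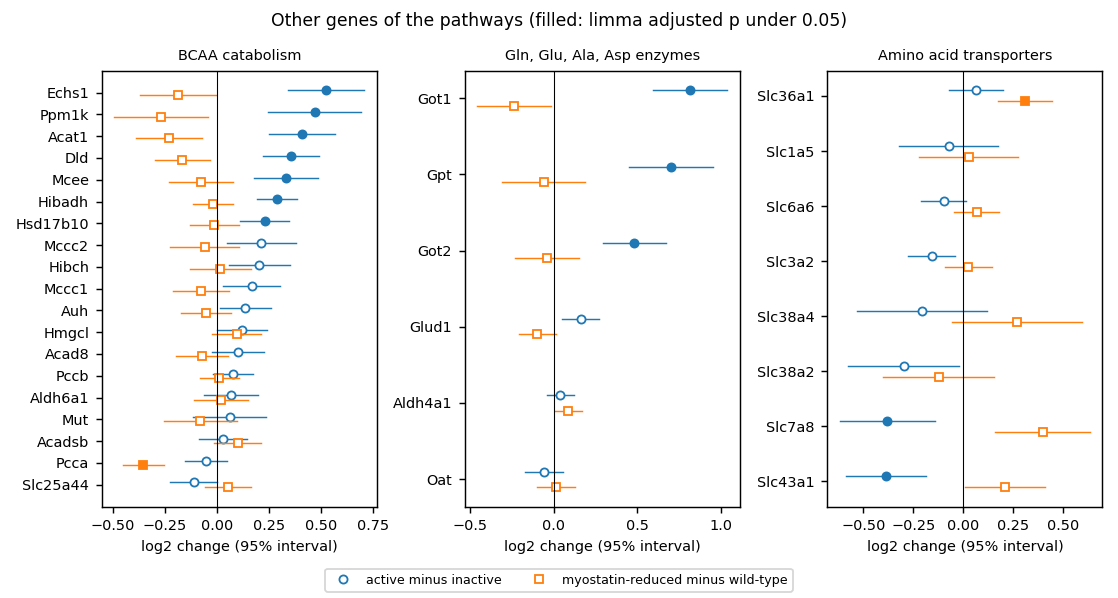
Changes on the log2 scale (horizontal axes, with 95% intervals) of the other tested genes of BCAA catabolism, of glutamine, glutamate, alanine and aspartate metabolism, and of amino acid transport, with circles for activity and squares for genotype and filled symbols for a limma adjusted p under 0.05. Filled circles lie to the right for 7 of 19 and 3 of 6 enzymes and to the left for 2 of 8 transporters, and the filled squares are Pcca to the left and Slc36a1 to the right.

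Of 8 other amino acid transporters tested, 2 fell with activity and 0 rose, beside 6.51% and 7.99% of all genes. They were Slc7a8 (-0.38, limma adjusted p = 0.0359) and Slc43a1 (-0.39, adjusted p = 0.0164), both of which carry branched-chain and other large neutral amino acids across the cell membrane. The Slc7a8 call was lost without any of IW mice 2 and 3, IM mice 2 and 3, AW mice 2 and 3 or AM mice 1 and 2, and Slc43a1 stayed called in each of those fits. With the slow-fibre score as a covariate 0 of the 8 were called for activity, and with scaling to the same sum or the replicate block 1, Slc43a1. For genotype 1 of the 8 was higher, beside 3.57% of all genes. This gene, Slc36a1, a proton-coupled transporter found on lysosomes, rose with myostatin reduction by 0.31 (24.0% higher, adjusted p = 0.0146), from 11.5 to 14.0 normalized reads over the 6 wild-type mice to 14.9 to 17.1 over the 6 myostatin-reduced mice. The glutamine carriers Slc38a2 and Slc1a5 had genotype changes of -0.12 (adjusted p = 0.616) and 0.03 (adjusted p = 0.920), beside the -0.45 of Slc38a3.

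Among 11 tested regulators of these genes, 1 rose with activity, 1 fell, and 0 were called for genotype, shares near those over all genes (7.99% higher and 6.51% lower with activity). Esrra, a nuclear receptor of mitochondrial genes, rose by 0.36 (limma adjusted p = 0.00290), and Tsc22d3, a gene induced by glucocorticoids, fell by 0.34 (adjusted p = 0.0421). Fkbp5, also induced by glucocorticoids, changed by 0.18 with activity (adjusted p = 0.0754), and within myostatin-reduced mice it was 37.5% higher in active mice (adjusted p = 0.0132), with 39.1, 45.6 and 41.1 normalized reads in IM and 58.3, 54.5 and 61.1 in AM mice. Its interaction was 0.55 (unadjusted p = 0.000917, adjusted p = 0.89). Klf15, a factor known to drive BCAA breakdown in muscle, had 25.6 to 44.0 normalized reads over the 12 mice, an activity change of -0.14 (adjusted p = 0.459) and a genotype change of 0.12 (adjusted p = 0.591). Nr3c1, the glucocorticoid receptor, which is known to raise Glul in muscle, changed by -0.09 with genotype (adjusted p = 0.604).

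Of the macrophage, adipocyte, fibroblast and Schwann cell lists, 2, 2, 5 and 2 genes were tested and 0 were called for genotype, and 1, Fabp4 of adipocytes and endothelium, rose with activity. The summed levels were 54.3 to 94.8 normalized reads for macrophage, 102 to 226 for adipocyte, 391 to 608 for fibroblast and 10.5 to 49.1 for Schwann cell markers over the 12 mice. For red blood cells 1 marker was read, at a level of 2.11 to 7.19, and none was tested. Of 10 fast-fibre markers, Myh1 and Myh2 rose with activity and Myh4, Atp2a1, Mylk2 and Actn3 fell, and Actn3 was higher in myostatin-reduced mice.

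Over the 12 mice, and among 2556 tested genes whose mean reached 50, the genes whose log2 values ran most nearly in parallel with Glul were Lpin1 (Pearson r = 0.869), Sec14l1 (0.845) and Sept11 (0.844). For Slc38a3 they were Optn (0.922), Yipf7 (0.915) and Dusp11 (0.902), and for Gpt2 they were Cbfb (0.929), Srp68 (0.878) and Faf1 (0.866). For Bckdhb they were Slc25a20 (0.922), Cs (0.906) and Ndufb5 (0.896), and for Bcat2 they were Gas6 (0.826), Ctsb (0.81) and Gdi2 (0.809). These likenesses are descriptions over 12 mice in the 4 groups, with all genes read from the same libraries, and the highest of 2556 values is high by selection.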

How the data were processed

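PolyA RNA from triceps brachii of 12 mice was sequenced as 65-base single reads. The authors aligned reads to mm9 with CASAVA, summed reads over RefSeq exons to genes and scaled them so that the trimmed mean of non-mitochondrial genes was equal, and the deposited signal is these normalized read counts per gene. The scaling fixes the typical gene, so changes are relative to it. Whole reads could not be recovered for nearly all genes (90.1 to 92.8% of values under 5, but 72.3 to 74.8% of those from 20 to 50, were whole within 0.1 read), so no count model was used. The step between low values gave the estimated depth, at which a count of 0 allows up to 3 reads, or 0.231 to 0.316 normalized reads.

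Groups were taken from the sample titles. limma 3.58.1 (R 4.3.3) was fitted to log2(value + 1) over all 12 mice with a mean per group, a trended variance and two-sided tests, for genes with a mean of at least 10, and was tested on simulated data with 200 changed genes. In the simulated data, changes of 0.5 were recovered for 174 of 200 genes for activity, 178 for genotype and 55 for the interaction. Most interactions of that size were thus missed. The p-values measure the spread between mice. Replicate numbers name different mice in each group. The paper chose control and myostatin-reduced mice with matched running, but the labels do not say which mice were matched. The correlation of same-numbered deviations exceeded 0.1 in all 3 pairs for IM with AM (mean 0.243), the only such pair of groups, so the block is reported as an alternative. Alternatives were other pseudocounts, no filter, other scalings, sample weights, a replicate block, a slow-fibre covariate and leaving out each mouse. The members and gene lists were chosen with earlier results of these data known. The genes named were the 9 members, Mstn, the called genes and up to 4 uncalled genes of each list, and the 3 genes most correlated with each of 5 members. From the list of glutamine and glutamate enzymes 1 tested gene is not reported here and was left out of its counts and median. Promoter windows came from RefSeq and were matched to NCBIM37 by sequence (Python 3.11.15).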

Additional observations from a re-analysis of the deposited data

Results flagged for a closer look

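The interaction of activity and genotype for Slc38a3 was 0.79 (SE 0.215, unadjusted p = 0.00301, limma adjusted p = 0.89), the only value of the 9 genes at an unadjusted p under 0.05, where 4.1% of all genes were. It is listed because the activity changes in myostatin-reduced (0.59) and wild-type mice (-0.20) differed by this unadjusted test, which does not hold after adjustment over all genes. The 3 IM mice, at 63.1, 65.7 and 48.4 normalized reads, lay below all other mice, and over the fits that left out 1 mouse each the interaction ranged from 0.64 to 0.90. With 3 mice per group, single mice that stand apart from their group were not tested.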

How the results depend on the processing

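Each of the member changes was refitted under 20 alternatives, and of 620 such values 540 kept their direction and their side of the threshold, 36 lost a call, 7 gained a call and 37 changed sign, none of the last being called. Of the 9 members, 4 were called for activity after scaling to the same sum (Bcat2, Bckdha, Bckdhb and Ivd), 1 with the replicate block (Bckdhb) and 0 with the slow-fibre covariate, against 2 in the main analysis, and leaving out 1 mouse gave 1 to 4. Over all genes the activity calls were 1525, 1082 and 401 in these 3 fits against 1051, so the member counts for scaling and for the covariate moved with the whole table. For genotype, scaling to the same sum gave 3 (Bckdk, Glul and Slc38a3, of 618 genes called against 419), the slow-fibre covariate left 1 (Glul, of 309), and leaving out 1 mouse gave 1 to 2. The replicate block changed no other member call. Within myostatin-reduced mice, scaling to the same sum gave 4 and the slow-fibre covariate 0 members called for activity, and leaving out 1 mouse gave 0 to 3. Within inactive mice leaving out 1 mouse gave 0 to 2 for genotype, and within active mice 0 to 1. Bcat2 was also called for activity with sample weights (0.19) and without AW mouse 1 (0.20). The interaction was called for 0 of the 9 members in every alternative.

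The BCAA catabolism list had 14 genes called for activity after scaling to the same sum and 4 with the slow-fibre covariate, with 7 to 10 over the single-mouse omissions, and for genotype 2 with sample weights and 1 to 3 over the omissions. The glutamine and glutamate list had 5 called for activity after scaling to the same sum. The transporter list had 1 called for activity after scaling to the same sum, 4 with sample weights, 1 with the replicate block, 0 with the slow-fibre covariate and 1 to 3 over the omissions. For genotype it had 2 called with a pseudocount of 5, with median-ratio scaling and with sample weights, and 1 to 2 over the omissions. The list fits were chosen after seeing the data.

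The values that changed sign were uncalled. After scaling to the same sum they were -0.00753 for Bckdha (genotype), 0.0998 for Bckdk (activity) and 0.0130 for Gpt2 (interaction). With sample weights they were -0.0452 for Dbt and 0.0934 for Gpt2, both for the interaction. With the slow-fibre covariate they were 0.0266 for Bckdhb and 0.0248 for Dbt (genotype), -0.0211 for Dbt (interaction), 0.0195 for Bckdk and 0.0446 for Gpt2 (activity), -0.0121 for Gpt2 (genotype) and 0.0839 for Gpt2 (interaction). Over the single-mouse omissions the interaction ranged from -0.137 to 0.00361 for Bcat2, -0.0810 to 0.0828 for Dbt and -0.141 to 0.201 for Gpt2. The genotype change ranged from -0.0458 to 0.0367 for Bckdhb and -0.0526 to 0.0293 for Dbt, and the activity change from -0.0273 to 0.0189 for Bckdk and -0.00313 to 0.137 for Glul. The cause of these shifts was not tested. With 3 mice per group, some changes whose unadjusted 95% interval excludes 0, such as that of Bckdk with genotype, did not pass after adjustment over all genes, and their absence from the calls does not show that they are 0.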
